A study of Mus musculus with 11 samples.

Results

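Cytosolic heat shock chaperones were followed through knockdown of the subunits of the RNA methyltransferase Mettl3-Mettl14 in a mouse alpha cell line. The group holds 10 genes: the transcription factor gene Hsf1, the J protein genes Dnajb1 and Dnaja1, the HSP70 genes Hspa1a, Hspa1b and Hspa8, the HSP110 gene Hsph1, the HSP90 genes Hsp90aa1 and Hsp90ab1, and the cochaperone gene Bag3. They were picked by gene symbol from the 53947 Ensembl gene rows of the count table. All 10 passed the filter on low counts and are among the 14133 genes tested.

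The cells were alphaTC1-6, an immortalised line of glucagon-producing mouse pancreatic alpha cells. Messenger RNA was sequenced from 4 libraries with Mettl3 knocked down (Mettl3 KD), 4 with Mettl14 knocked down (Mettl14 KD) and 3 with a scramble control, all collected after 72 h. All 3 groups were reverse transfected in the same normal growth medium, and the labels name no heat treatment. The sources used here do not say which kind of knockdown reagent was used, and a cell line stands in for alpha cells of an islet.

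HSF1 drives transcription of chaperone genes when unfolded proteins build up in the cytosol, by binding inverted repeats of the word GAA called heat shock elements. HSP70 proteins clamp onto exposed stretches of client proteins in cycles of ATP hydrolysis, J proteins bring the clients and speed the hydrolysis, and HSP110 and BAG proteins release the spent nucleotide. HSP90 takes over clients such as kinases and steroid receptors for their last folding steps. Mettl3 and Mettl14 write N6-methyladenosine, m6A, on messenger RNA, and in heat-stressed mouse cells m6A in the leader of Hsp70 messenger RNA is known to aid its translation.

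Promoter windows in RefSeq's tables for the build GRCm38.p6 were at hand for 6 of the 10 genes, in 10 windows of 300 bases, each running from 250 bases before a start site to 50 bases after it. They are shown because the heat shock element is the sequence by which HSF1 is known to act. Whether these letters bear on the changes in level given below was not tested. The words GAANNTTC and TTCNNGAA, each the reverse complement of itself, were searched in all windows and stand in capitals. The first listed window of each of 4 genes reads as follows, 5′ to 3′ on the gene's own strand: Hsph1 at chr5:149636287-149636586 (minus strand), Dnaja1 at chr4:40722218-40722517 (plus strand), Dnajb1 at chr8:83607925-83608224 (plus strand) and Hspa1a at chr17:34972107-34972406 (minus strand).
Hsph1: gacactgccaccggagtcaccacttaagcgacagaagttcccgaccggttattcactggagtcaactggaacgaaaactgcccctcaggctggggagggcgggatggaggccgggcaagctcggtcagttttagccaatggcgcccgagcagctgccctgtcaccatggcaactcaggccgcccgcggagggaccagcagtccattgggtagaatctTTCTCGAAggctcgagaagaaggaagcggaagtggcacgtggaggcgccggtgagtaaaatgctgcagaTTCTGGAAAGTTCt
Dnaja1: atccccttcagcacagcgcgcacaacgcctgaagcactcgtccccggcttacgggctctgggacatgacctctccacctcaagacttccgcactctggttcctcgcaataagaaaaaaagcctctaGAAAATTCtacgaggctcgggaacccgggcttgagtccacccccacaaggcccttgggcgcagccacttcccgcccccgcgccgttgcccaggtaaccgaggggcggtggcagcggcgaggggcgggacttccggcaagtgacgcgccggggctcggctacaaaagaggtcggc
Dnajb1: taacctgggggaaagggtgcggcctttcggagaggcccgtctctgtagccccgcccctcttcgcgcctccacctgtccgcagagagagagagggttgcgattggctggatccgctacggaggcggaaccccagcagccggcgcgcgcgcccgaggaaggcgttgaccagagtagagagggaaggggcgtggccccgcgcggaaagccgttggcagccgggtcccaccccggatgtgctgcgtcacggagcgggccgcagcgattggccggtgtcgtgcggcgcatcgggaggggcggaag
Hspa1a: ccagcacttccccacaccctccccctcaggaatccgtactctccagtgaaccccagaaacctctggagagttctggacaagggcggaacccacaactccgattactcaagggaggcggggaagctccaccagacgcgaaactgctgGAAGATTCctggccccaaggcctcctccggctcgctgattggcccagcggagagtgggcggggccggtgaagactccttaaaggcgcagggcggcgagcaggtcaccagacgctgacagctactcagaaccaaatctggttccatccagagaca

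Hsph1 was the one gene of the 6 whose window held 3 alternating units in a row: its words TTCTGGAA and GAAAGTTC overlap downstream of the start site, and TTCTCGAA starts 33 bases before it. Dnaja1 held GAAAATTC, starting 124 bases before the start site, in 1 of its 3 windows. Hspa1a and Hspa1b both held GAAGATTC starting 104 bases before their start sites, and their windows were the same at 296 of 300 positions. Bag3 held GAAGTTTC downstream of its start site, and neither window of Dnajb1 held a match. Of 32851 RefSeq windows of this length, 15.1% held either word and 0.603% held 3 alternating units. No window of the 6 genes held TATAAA, which 13.6% of all windows held on either strand. A match describes these letters and is not a measured binding site.

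Library totals ran from 19576632 to 22406527 counts. Mettl3 itself had 5.06, 5.01, 5.98 and 5.30 CPM in Mettl3 KD libraries, against 14.005, 14.7 and 16.0 CPM in scramble libraries, so that 35.8% of the scramble level was left. Mettl14 had 14.9, 14.2, 15.5 and 13.9 CPM in Mettl14 KD libraries, against 25.4, 23.5 and 26.8 CPM in scramble libraries, which left 58.1%. The alpha cell markers were present in every library, with Gcg at 574755 counts or more, while the beta cell hormone genes Ins1 and Ins2 had at most 2 counts and the delta cell gene Sst at most 3. Of the other beta cell markers Nkx6-1 was present, at 1085 to 1439 counts, and Mafa had 7 to 15. Scramble replicate 2 stood apart: 10 lung and blood transcripts summed to 114 CPM there and to between 1.89 and 5.52 CPM in each other library, and 6 mesenchymal, endothelial and immune markers summed to 21.5 CPM against 2.25 to 5.37 CPM. Its 12 alpha cell markers summed to 37579 CPM against 41604 to 48601 CPM in the others, and its 6 beta cell markers to 73.7 CPM against 50.3 to 57.5 CPM. Its counts differed from the other scramble libraries with a chi-square per degree of freedom of 13.3 and 14.9, against 2.10 to 3.87 for all other replicate pairs. Against the mean of the other scramble libraries it differed by 0.22 for Hsf1, 0.23 for Bag3, -0.23 for Dnaja1 and -0.26 for Hsp90ab1 on the log2 scale. The part of this library's foreign transcripts in those differences was not tested. For the chaperone genes of the group, values without scramble replicate 2 are given where a call turned on it. For the other chaperone genes described below, only some counts of calls are given without it, and no values of single genes.

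CPM below stands for each gene's share of a library's counts, given per 1e6 counts after TMM scaling, which evens out library composition; each ± after a CPM is the SD over libraries. Calls rest on the quasi-likelihood test of edgeR, with p-values adjusted by the Benjamini-Hochberg method over all genes tested and a threshold of 0.05. Each ± after a log2 fold change is its SE. The scramble libraries are shared by both knockdown comparisons, so their results are not independent of each other. In bulk RNA, fewer cells of a type and less RNA per cell cannot be told apart.

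In the scramble control the group spanned a wide range of levels. Per kilobase of principal transcript, with lengths from GENCODE M21, scramble libraries held 913 ± 91.2 CPM per kb of Hsp90ab1, 445 ± 12.5 CPM per kb of Hspa8 and 306 ± 16.7 CPM per kb of Hsp90aa1. Next came Dnaja1 at 68.1 ± 6.83 CPM per kb and Hsph1 at 57.5 ± 2.27 CPM per kb. Hsf1 at 29.4 ± 2.77 CPM per kb, Bag3 at 27.6 ± 2.67 CPM per kb and Dnajb1 at 27.6 ± 0.562 CPM per kb did not differ beyond their spread. The stress-inducible Hspa1b and Hspa1a were far lower, at 0.990 ± 0.152 and 0.449 ± 0.0967 CPM per kb. Hsp90ab1 was at the top of the order and the inducible HSP70 pair at the bottom in all 3 groups.

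With Mettl3 knocked down, 4 of the 10 chaperone genes rose and 1 fell. Hsph1, Dnaja1, Hspa8 and Hsp90aa1 rose by 0.10 to 0.31 on the log2 scale, and Dnajb1 fell by 0.61. In this comparison 31.3% of all genes tested were called, 15.5% as higher and 15.8% as lower, so a call alone does not set the group apart. The median log2 fold change was 0.07 over the 10 genes and -0.00391 over all genes. With Mettl14 knocked down, 3 of the 10 rose, Dnaja1, Hsph1 and Hspa8, and none passed the test as lower. There 20.9% of all genes were called, 10.1% as higher and 10.8% as lower, and the medians were 0.07 over the 10 genes and 0.000324 over all genes. Between the knockdowns, Hsph1 and Hsf1 were higher and Dnajb1 was lower in Mettl3 KD than in Mettl14 KD, in a comparison that called 8.1% of all genes, 3.66% as higher and 4.44% as lower. Without scramble replicate 2 the counts were 5 higher and 1 lower for Mettl3 KD against scramble and 4 higher for Mettl14 KD against scramble. Of 14316 genes tested in that fit, 4343 and 2786 were called in these 2 comparisons. Hsf1 and Bag3 joined the Mettl3 KD calls and Hsp90aa1 left them, and Bag3 joined the Mettl14 KD calls.

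**Figure D1:**
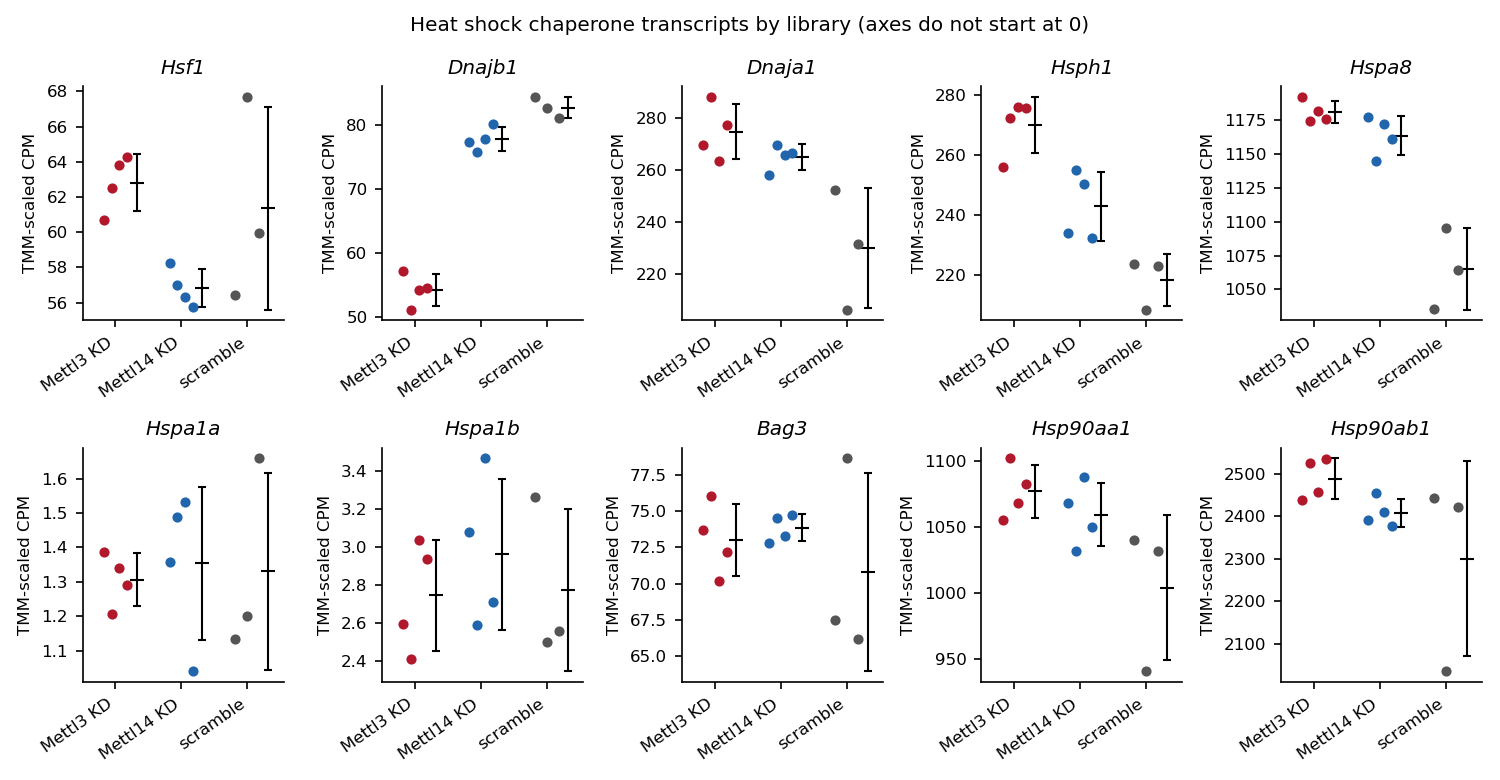
TMM-scaled CPM of each chaperone gene in every library, with Mettl3 KD in red, Mettl14 KD in blue and scramble in grey; each point is a library and each bar the mean and SD. The 4 Mettl3 KD libraries of Dnajb1 lie between 51.1 and 57.2 CPM, below all others, and scramble replicate 2 is the scramble library farthest out for Hsf1, Bag3, Hsp90aa1 and Hsp90ab1.

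Dnajb1 (ENSMUSG00000005483), the heat-inducible J protein known as HSP40 that hands clients to HSP70, had the largest change of the group in both comparisons with Mettl3 KD on top, but not in Mettl14 KD against scramble. It had 57.2, 51.1, 54.1 and 54.5 CPM in Mettl3 KD libraries, 77.5, 75.8, 77.9 and 80.2 CPM in Mettl14 KD libraries and 84.5, 82.7 and 81.1 CPM in scramble libraries. Each Mettl3 KD library was below each library of the other groups, and each Mettl14 KD library was also below each scramble library, by a narrow margin. The means were 54.2 ± 2.49 CPM in Mettl3 KD (n = 4), 77.8 ± 1.83 CPM in Mettl14 KD (n = 4) and 82.8 ± 1.68 CPM in scramble (n = 3). Mettl3 KD held 65.6% of the scramble level, a log2 fold change of -0.61 ± 0.04 (SE; adjusted p = 4.57e-10, edgeR). In Mettl14 KD against scramble the log2 fold change was -0.09 ± 0.04, which did not pass (adjusted p = 0.110, edgeR), although no library overlapped. Between the knockdowns it was -0.52 ± 0.04 (adjusted p = 9.62e-09, edgeR). Of the 14133 genes tested, 3.85% had a lower log2 fold change than Dnajb1 in Mettl3 KD against scramble, and 1.42% did in Mettl3 KD against Mettl14 KD. Scramble replicate 2 was close to the other scramble libraries for this gene, with a log2 difference of -0.0026 from their mean.

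Dnaja1 (ENSMUSG00000028410), the constitutive J protein of the cytosol that partners with HSP70 in protein import and refolding, moved the other way. It had 269.5, 288, 263 and 277 CPM in Mettl3 KD libraries, 258, 269.6, 266 and 266 CPM in Mettl14 KD libraries and 252, 206 and 231 CPM in scramble libraries. All knockdown libraries were above all scramble libraries, and the lowest scramble value was that of replicate 2. Dnaja1 rose by 0.26 ± 0.05 on the log2 scale in Mettl3 KD (adjusted p = 0.00147, edgeR) and by 0.20 ± 0.05 in Mettl14 KD (adjusted p = 0.0109, edgeR). The knockdowns overlapped each other, with 0.05 ± 0.05 between them (adjusted p = 0.603, edgeR). Both calls held in each fit that left out 1 library, where the log2 fold changes lay between 0.18 and 0.33 in Mettl3 KD and between 0.13 and 0.28 in Mettl14 KD.

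Hsph1 (ENSMUSG00000029657), the HSP110 protein that exchanges nucleotide on HSP70 and helps dissolve aggregates, showed a graded order over the groups. It had 256, 272, 276 and 276 CPM in Mettl3 KD libraries, 234, 255, 250.4 and 232 CPM in Mettl14 KD libraries and 224, 209 and 223 CPM in scramble libraries. No library of one group overlapped another group, though the lowest Mettl3 KD library and the highest Mettl14 KD library lay 256.2 against 255.1 CPM. Hsph1 rose by 0.31 ± 0.04 in Mettl3 KD (adjusted p = 6.96e-06, edgeR) and by 0.15 ± 0.04 in Mettl14 KD (adjusted p = 0.00885, edgeR). It was 0.15 ± 0.04 higher in Mettl3 KD than in Mettl14 KD on the log2 scale (adjusted p = 0.0120, edgeR). This last call was lost without Mettl3 KD replicate 4 (adjusted p = 0.0531, edgeR), Mettl14 KD replicate 1 (adjusted p = 0.0582, edgeR) or Mettl14 KD replicate 4 (adjusted p = 0.0618, edgeR), while the log2 fold change stayed between 0.13 and 0.18.

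**Figure D2:**
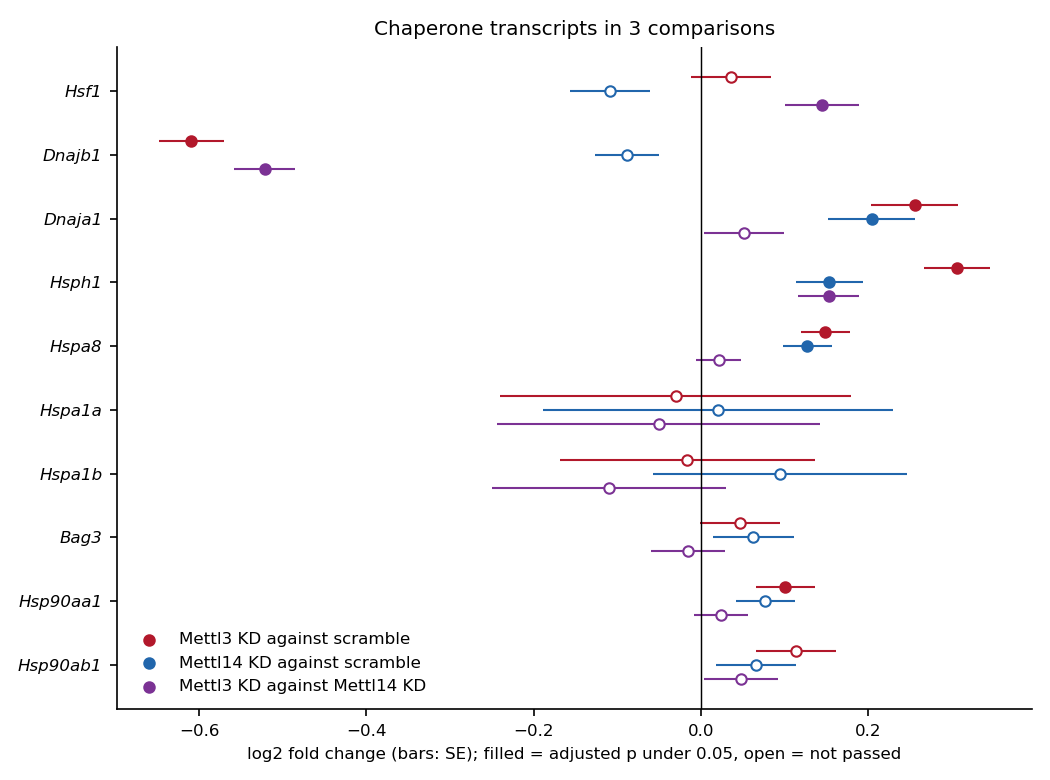
Log2 fold changes of the 10 chaperone genes in Mettl3 KD against scramble, Mettl14 KD against scramble and Mettl3 KD against Mettl14 KD; bars are SE and filled points passed the test. Dnajb1 lies at -0.61 and -0.52 in the comparisons with Mettl3 KD on top and at -0.09 in Mettl14 KD against scramble.

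Hspa8 (ENSMUSG00000015656), the constitutive HSC70 that carries most housekeeping folding and uncoats clathrin vesicles, had 1192, 1174, 1181 and 1175 CPM in Mettl3 KD libraries, 1177, 1144, 1172 and 1161 CPM in Mettl14 KD libraries and 1036, 1096 and 1064 CPM in scramble libraries. All knockdown libraries were above all scramble libraries. Hspa8 rose by 0.15 ± 0.03 in Mettl3 KD (adjusted p = 0.000598, edgeR) and by 0.13 ± 0.03 in Mettl14 KD (adjusted p = 0.00385, edgeR), with 0.02 ± 0.03 between the knockdowns (adjusted p = 0.720, edgeR).

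Counts of Hspa8 are uncertain in 1 respect. Of the 31-base words of its principal GENCODE M21 transcript, 74.3% also occur in the processed pseudogene Gm15459, to which the deposited table assigns 15678 to 22233 counts a library, against 21910 to 26623 for Hspa8. Gm15459 itself was at 970 ± 21.8 CPM in Mettl3 KD, 943 ± 19.9 CPM in Mettl14 KD and 836 ± 45.9 CPM in scramble. Its log2 fold changes were 0.22 ± 0.04 in Mettl3 KD (adjusted p = 0.000102, edgeR) and 0.18 ± 0.04 in Mettl14 KD (adjusted p = 0.00133, edgeR). The gene and pseudogene, summed to 1 row after these counts were seen, had 2151 ± 14.4 CPM in Mettl3 KD, 2107 ± 27.9 CPM in Mettl14 KD and 1901 ± 30.6 CPM in scramble. The sum rose by 0.18 ± 0.03 in Mettl3 KD (adjusted p = 7.46e-05, edgeR) and by 0.15 ± 0.03 in Mettl14 KD (adjusted p = 0.000833, edgeR), so the direction did not turn on how reads were shared between them.

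**Figure D3:**
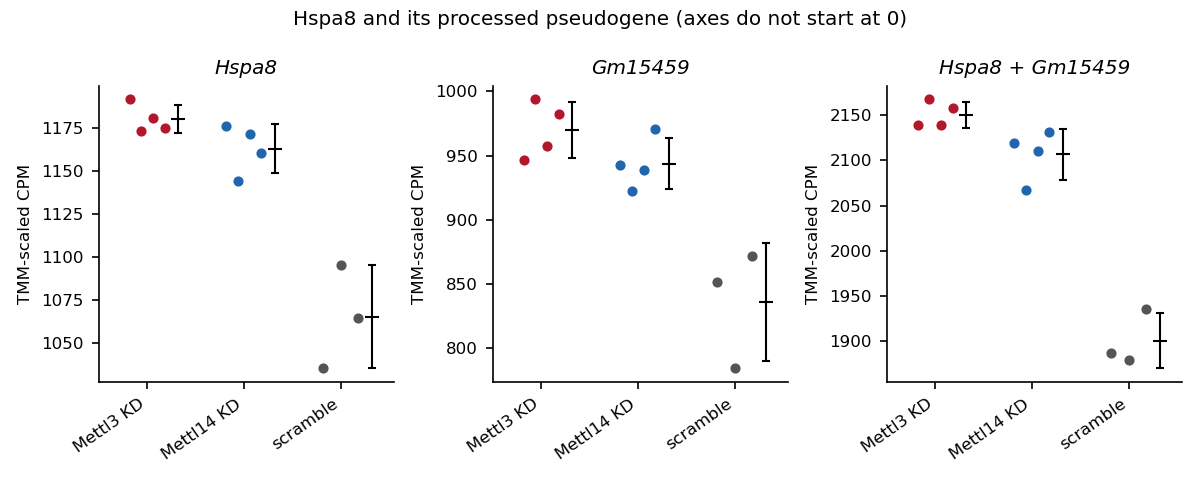
TMM-scaled CPM of Hspa8, of its processed pseudogene Gm15459 and of their sum in every library; bars are the mean and SD. For all 3 quantities the 4 Mettl3 KD and 4 Mettl14 KD libraries lie above the 3 scramble libraries.

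The stress-inducible HSP70 genes Hspa1a (ENSMUSG00000091971) and Hspa1b (ENSMUSG00000090877) encode nearly the same protein and are the classic targets of HSF1. They were at the bottom of the group, with 23 to 37 counts a library for Hspa1a and 50 to 77 for Hspa1b. Hspa1a was at 1.31 ± 0.0771 CPM in Mettl3 KD, 1.35 ± 0.222 CPM in Mettl14 KD and 1.33 ± 0.287 CPM in scramble. Hspa1b was at 2.75 ± 0.291 CPM in Mettl3 KD, 2.96 ± 0.395 CPM in Mettl14 KD and 2.77 ± 0.425 CPM in scramble. All groups overlapped and neither gene passed the test in any comparison. Hspa1a shares 63.8% of its 31-base words with Hspa1b, so reads cannot be split between them with certainty. The gene Gm10501, with 127 to 175 counts a library, shares 12.1% of the words of Hspa1a and 11.1% of those of Hspa1b. The sum of the pair given below does not settle how reads were shared with Gm10501.

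Summed to 1 gene, Hspa1a and Hspa1b had 89, 81, 98 and 95 counts in Mettl3 KD libraries, 98, 85, 111 and 83 counts in Mettl14 KD libraries and 97, 74 and 94 counts in scramble libraries. The log2 fold change of the sum was -0.02 ± 0.12 in Mettl3 KD, with a 95% interval from -0.30 to 0.26, and 0.07 ± 0.12 in Mettl14 KD, from -0.21 to 0.35. Smaller differences were not detectable at this depth. As a count ratio, not scaled by length, the inducible pair was 0.343 ± 0.0277% of Hspa8 in Mettl3 KD (n = 4), 0.371 ± 0.0433% in Mettl14 KD (n = 4) and 0.386 ± 0.0443% in scramble (n = 3). By a two-sided exact permutation test of the ratio, p was 0.171 in Mettl3 KD against scramble, 0.743 in Mettl14 KD against scramble and 0.343 in Mettl3 KD against Mettl14 KD, so no comparison passed. Over the 6 ratio comparisons made, each adjusted exact permutation p was 0.800 or more. With 4 libraries against 3 the smallest p these permutations can give is 0.0571, and with 4 against 4 it is 0.0286.

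Hsp90aa1 (ENSMUSG00000021270) encodes the stress-inducible HSP90 alpha. It had 1055, 1102, 1068 and 1083 CPM in Mettl3 KD libraries, 1068, 1031, 1087 and 1050.0 CPM in Mettl14 KD libraries and 1039.7, 941 and 1032 CPM in scramble libraries. All Mettl3 KD libraries were above all scramble libraries, and replicate 2 was well below the other scramble libraries. Hsp90aa1 rose by 0.10 ± 0.04 in Mettl3 KD (adjusted p = 0.0340, edgeR). Without scramble replicate 2 the value was 0.06 ± 0.03 and did not pass (adjusted p = 0.120, edgeR). The call was also lost without Mettl3 KD replicate 2 (0.09, adjusted p = 0.0962, edgeR), replicate 3 (0.10, adjusted p = 0.0556, edgeR) or replicate 4 (0.10, adjusted p = 0.0793, edgeR). In Mettl14 KD the log2 fold change was 0.08 ± 0.04 and did not pass (adjusted p = 0.129, edgeR).

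Hsp90ab1 (ENSMUSG00000023944), the constitutive HSP90 beta, had 2438, 2524, 2456 and 2534 CPM in Mettl3 KD libraries, 2390.3, 2454, 2408 and 2376 CPM in Mettl14 KD libraries and 2443, 2035 and 2422 CPM in scramble libraries. Scramble replicate 2 was the lowest of the 11 libraries. The log2 fold change was 0.11 ± 0.05 in Mettl3 KD (adjusted p = 0.0838, edgeR) and 0.07 ± 0.05 in Mettl14 KD (adjusted p = 0.364, edgeR), so neither passed. Its sign in Mettl14 KD turned on that library, with -0.02 without it. In Mettl3 KD the test was passed without scramble replicate 1 (0.16, adjusted p = 0.0224, edgeR) and without scramble replicate 3 (0.16, adjusted p = 0.0327, edgeR), and without scramble replicate 2 the value was 0.03. The count ratio of Hsp90aa1 to Hsp90ab1 was 43.3 ± 0.406% in Mettl3 KD (n = 4), 44.0 ± 1.38% in Mettl14 KD (n = 4) and 43.8 ± 2.11% in scramble (n = 3). The exact permutation p-values were 0.857 in Mettl3 KD against scramble, 0.800 in Mettl14 KD against scramble and 0.400 in Mettl3 KD against Mettl14 KD.

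Hsf1 (ENSMUSG00000022556), the regulator itself, had 60.7, 62.5, 63.8 and 64.3 CPM in Mettl3 KD libraries, 58.3, 57.0, 56.3 and 55.7 CPM in Mettl14 KD libraries and 56.4, 67.7 and 59.9 CPM in scramble libraries. Each Mettl3 KD library was above each Mettl14 KD library, and the scramble libraries spanned both groups. Hsf1 was 0.14 ± 0.04 higher in Mettl3 KD than in Mettl14 KD (adjusted p = 0.0490, edgeR). This call sat at the threshold: it was lost in 9 of the 11 fits that left out 1 library, all but those without scramble replicate 1 or scramble replicate 2, with log2 fold changes of 0.13 to 0.16 over the 11 fits. Against scramble the values were 0.04 ± 0.05 in Mettl3 KD (adjusted p = 0.613, edgeR) and -0.11 ± 0.05 in Mettl14 KD (adjusted p = 0.117, edgeR). Without scramble replicate 2 the Mettl3 KD value was 0.11 and passed (adjusted p = 0.0385, edgeR), and without scramble replicate 1 the Mettl14 KD value was -0.17 and passed (adjusted p = 0.0168, edgeR) while that of Mettl3 KD was -0.02.

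Bag3 (ENSMUSG00000030847), a stress-induced cochaperone that releases HSP70 clients and steers them to autophagy, had 73.7, 76.1, 70.2 and 72.2 CPM in Mettl3 KD libraries, 72.8, 74.5, 73.3 and 74.8 CPM in Mettl14 KD libraries and 67.5, 78.7 and 66.2 CPM in scramble libraries. Scramble replicate 2 was above every knockdown library and the other scramble libraries were below every one. Neither knockdown passed the test, with log2 fold changes of 0.05 ± 0.05 in Mettl3 KD (adjusted p = 0.500, edgeR) and 0.06 ± 0.05 in Mettl14 KD (adjusted p = 0.387, edgeR). Without that library both passed, at 0.13 ± 0.04 (adjusted p = 0.0111, edgeR) and 0.14 ± 0.04 (adjusted p = 0.00692, edgeR).

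**Figure D4:**
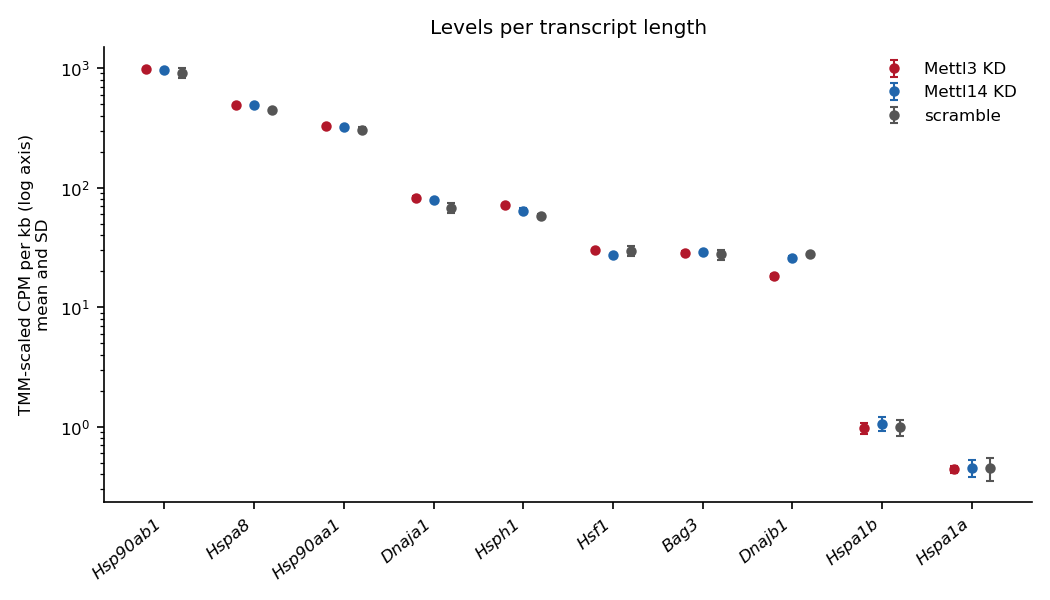
TMM-scaled CPM per kb of principal transcript for the 10 chaperone genes, on a log axis, as mean and SD over libraries of Mettl3 KD, Mettl14 KD and scramble. Hsp90ab1 is highest in all 3 groups and Hspa1a lowest; Dnajb1 lies at 18.1 CPM per kb in Mettl3 KD, 26.0 in Mettl14 KD and 27.6 in scramble.

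The rest of the chaperone network was described with 9 lists of 83 genes, of which 75 were tested. Over all lists, 20 genes rose and 11 fell in Mettl3 KD against scramble, 15 rose and 8 fell in Mettl14 KD against scramble, and 7 stood higher and 4 stood lower in Mettl3 KD when it was set against Mettl14 KD. Of all genes tested, 15.5% were higher and 15.8% lower in the first comparison, 10.1% and 10.8% in the second, and 3.66% and 4.44% in the third. The medians over the lists were 0.07, 0.06 and 0.01 in these 3 comparisons.

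The cytosolic chaperonin, the double ring that folds actin and tubulin, and its partner prefoldin made up a list of 14 tested genes. Of these, 7 rose and none fell in Mettl3 KD (median log2 fold change 0.15, beside 15.5% of all genes called as higher), and 4 rose and none fell in Mettl14 KD (median 0.10, beside 10.1%). All 7 encode subunits of the chaperonin ring, and no prefoldin gene passed in Mettl3 KD. Cct3 was at 434 ± 13.6 CPM in Mettl3 KD, 410.2 ± 5.50 CPM in Mettl14 KD and 356 ± 12.7 CPM in scramble, with log2 fold changes of 0.29 ± 0.03 in Mettl3 KD (adjusted p = 1.92e-06, edgeR) and 0.20 ± 0.03 in Mettl14 KD (adjusted p = 0.000177, edgeR). Cct8 rose by 0.17 ± 0.03 in Mettl3 KD (adjusted p = 0.000609, edgeR) and by 0.15 ± 0.03 in Mettl14 KD (adjusted p = 0.00456, edgeR). None of the 14 was called between the knockdowns by edgeR, beside 8.1% of all genes. Without scramble replicate 2 that count was 3 higher and 1 lower in Mettl3 KD. That fit called 2125 of 14316 genes between the knockdowns, against 1145 of 14133 with all libraries.

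Of 15 genes for cochaperones of HSP90, 5 rose in Mettl3 KD, beside 15.5% of all genes, and 4 rose in Mettl14 KD, beside 10.1%. None was called as lower against scramble, and the medians were 0.09 in Mettl3 KD and 0.07 in Mettl14 KD. Ahsa1, which speeds the ATPase of HSP90, was at 199 ± 3.73 CPM in Mettl3 KD, 191 ± 4.51 CPM in Mettl14 KD and 162 ± 14.5 CPM in scramble. It rose by 0.30 ± 0.04 in Mettl3 KD (adjusted p = 4.18e-05, edgeR) and by 0.24 ± 0.04 in Mettl14 KD (adjusted p = 0.000732, edgeR). Ppid, the cyclophilin 40 of steroid receptor complexes, rose by 0.26 ± 0.04 in Mettl3 KD (adjusted p = 2.82e-05, edgeR). It was at 71.9 ± 2.34 CPM in Mettl3 KD, 65.8 ± 2.12 CPM in Mettl14 KD and 59.8 ± 1.33 CPM in scramble. Chordc1 rose by 0.17 ± 0.04 in Mettl14 KD (adjusted p = 0.00342, edgeR), with 67.4 ± 1.99 CPM in Mettl3 KD, 73.0 ± 0.862 CPM in Mettl14 KD and 64.8 ± 3.40 CPM in scramble. Between the knockdowns Ahsa2 and Ppid were higher and Cdc37l1 lower in Mettl3 KD, beside 3.66% of all genes called as higher and 4.44% as lower. The Mettl3 KD count was 3 without Mettl3 KD replicate 1, and the count between the knockdowns was 0 without Mettl14 KD replicate 1, and it was 1 when Mettl14 KD lacked replicate 2 or 3 and when Mettl3 KD lacked any of replicates 2, 3 and 4.

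Of 8 mitochondrial chaperone genes, 4 rose and none fell in Mettl3 KD (median 0.22, beside 15.5% of all genes called as higher), and 3 rose and none fell in Mettl14 KD (median 0.13, beside 10.1%). Grpel2 lay the other way in Mettl14 KD, at 33.3 ± 1.89 CPM in Mettl14 KD and 36.3 ± 2.60 CPM in scramble, and did not pass. Without scramble replicate 2 the Mettl14 KD count was 3 higher and 1 lower. Grpel1, the nucleotide exchange factor of mitochondrial HSP70, was at 97.4 ± 2.60 CPM in Mettl3 KD, 87.1 ± 3.68 CPM in Mettl14 KD and 77.3 ± 4.65 CPM in scramble, and rose by 0.33 ± 0.04 in Mettl3 KD (adjusted p = 6.09e-06, edgeR). Trap1, the mitochondrial HSP90, rose by 0.22 ± 0.04 in Mettl3 KD (adjusted p = 8.44e-05, edgeR) and by 0.14 ± 0.04 in Mettl14 KD (adjusted p = 0.00666, edgeR). Hspd1, the mitochondrial chaperonin HSP60, rose by 0.28 ± 0.06 in Mettl14 KD (adjusted p = 0.00420, edgeR). Grpel1 and Grpel2 were higher in Mettl3 KD than in Mettl14 KD, beside 3.66% of all genes called as higher. Of these calls, 1 was lost when Mettl3 KD lacked replicate 4 and when Mettl14 KD lacked replicate 2.

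**Figure D5:**
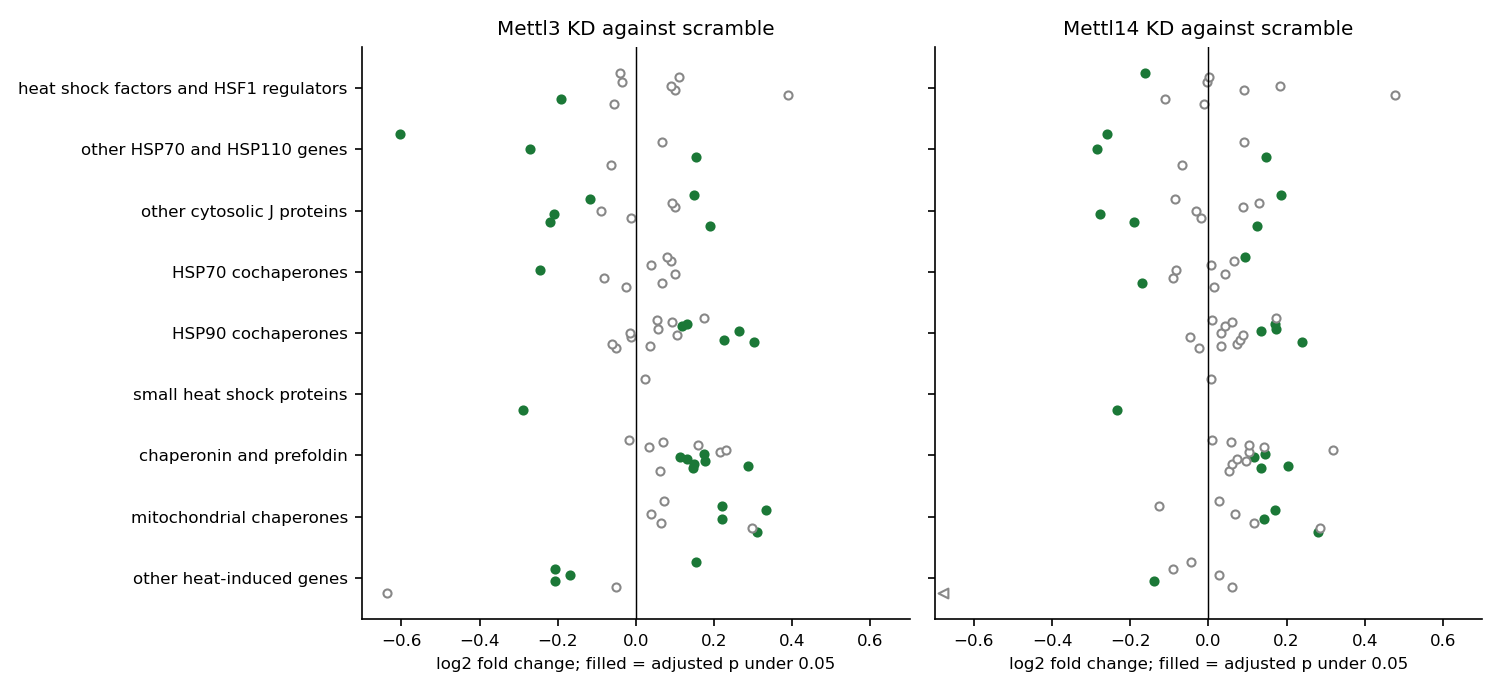
Log2 fold changes of the other chaperone and heat shock genes by list, in Mettl3 KD against scramble (left) and Mettl14 KD against scramble (right); each point is a gene and filled points passed the test. The triangle at the left edge marks Serpinh1, a low-count gene at -2.16 in Mettl14 KD that did not pass; all called chaperonin, HSP90 cochaperone and mitochondrial genes lie right of 0.

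The other HSP70 and J protein genes went both ways. Of 7 HSP70 and HSP110 genes 5 were tested, and in each knockdown Hspa4 rose while Hspa4l and Hspa12a fell. Of all genes tested, 15.5% were higher and 15.8% lower in Mettl3 KD, and 10.1% and 10.8% in Mettl14 KD. Hspa12a, an atypical HSP70, was at 26.8 ± 0.310 CPM in Mettl3 KD, 34.0 ± 0.640 CPM in Mettl14 KD and 40.7 ± 1.70 CPM in scramble. It fell by 0.60 ± 0.04 on the log2 scale in Mettl3 KD (adjusted p = 2.64e-09, edgeR) and by 0.26 ± 0.04 in Mettl14 KD (adjusted p = 0.000197, edgeR), and was lower in Mettl3 KD than in Mettl14 KD, at -0.34 ± 0.04 (adjusted p = 2.05e-05, edgeR). Hspa4l, an HSP110 relative of Hsph1, fell by 0.27 ± 0.03 in Mettl3 KD (adjusted p = 2.72e-06, edgeR) and by 0.29 ± 0.03 in Mettl14 KD (adjusted p = 2.28e-06, edgeR).

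Of 9 other cytosolic J protein genes, 2 rose and 3 fell in Mettl3 KD, beside 15.5% and 15.8% of all genes. In Mettl14 KD 2 rose and 2 fell, beside 10.1% and 10.8% of all genes. Without scramble replicate 2 the counts were 1 higher and 4 lower in Mettl3 KD and 2 higher and 4 lower in Mettl14 KD. Dnaja2, a relative of Dnaja1, rose by 0.19 ± 0.03 in Mettl3 KD (adjusted p = 7.57e-05, edgeR) and by 0.12 ± 0.03 in Mettl14 KD (adjusted p = 0.00623, edgeR). Dnaja4 fell by 0.22 ± 0.06 in Mettl3 KD (adjusted p = 0.00539, edgeR). Dnajb4, of the same subfamily as Dnajb1, fell by 0.28 ± 0.06 in Mettl14 KD (adjusted p = 0.00304, edgeR) and by 0.21 ± 0.06 in Mettl3 KD (adjusted p = 0.0131, edgeR). None of the 9 was called between the knockdowns by edgeR, beside 8.1% of all genes tested.

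Among other heat-induced genes, Zfand2a, an arsenite- and heat-induced zinc finger gene, fell by 0.17 ± 0.04 in Mettl3 KD (adjusted p = 0.000905, edgeR), with Rgs2 also lower and Hmox1 higher. Zfand2a was at 168 ± 1.45 CPM in Mettl3 KD, 193 ± 5.09 CPM in Mettl14 KD and 189 ± 9.74 CPM in scramble. Between the knockdowns 1 of these heat-induced genes was called higher and 1 lower in Mettl3 KD, beside 3.66% and 4.44% of all genes. The lowest log2 fold change there was -0.20. Hspb6, a small heat shock protein, fell by 0.29 ± 0.06 in Mettl3 KD (adjusted p = 0.00179, edgeR) and by 0.23 ± 0.06 in Mettl14 KD (adjusted p = 0.0137, edgeR), and was 1 of only 2 small heat shock genes of 8 with enough counts to test. The Mettl14 KD count in that list was 0 without scramble replicate 2, in a fit that called 2786 of 14316 genes in that comparison.

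Among 8 HSP70 cochaperones, Bag6 fell by 0.25 ± 0.04 in Mettl3 KD (adjusted p = 4.67e-05, edgeR). In Mettl14 KD, Bag2 fell by 0.17 ± 0.04 (adjusted p = 0.00648, edgeR) and Stub1, the ubiquitin ligase CHIP, rose by 0.09 ± 0.03 (adjusted p = 0.0481, edgeR). That Mettl14 KD count was 1 in each fit that left out a library other than Mettl14 KD replicate 2. The Mettl3 KD count was 2 without scramble replicate 3. With all libraries, 31.3% of all genes were called in Mettl3 KD against scramble and 20.9% in Mettl14 KD against scramble. Among 8 heat shock factors and HSF1 regulators, Hsf4 fell by 0.19 ± 0.06 in Mettl3 KD (adjusted p = 0.0280, edgeR) and Hdac6 by 0.16 ± 0.03 in Mettl14 KD (adjusted p = 0.000761, edgeR). The Mettl3 KD count there was 0 when Mettl3 KD lacked replicate 2 or 4 and when scramble lacked replicate 2, and it was 2 when scramble lacked replicate 1. The Mettl14 KD count was 2 without scramble replicate 2 or Mettl14 KD replicate 2 and 3 without scramble replicate 1. The same shares of all genes, 31.3% and 20.9%, stand beside the counts of this list.

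The motif GGACT, one of the sequence contexts in which m6A is laid down, was counted on the sense strand of principal GENCODE M21 transcripts. Dnajb1 held 5 matches, 1.67 per kb, which is above 80.1% of the 12205 tested genes with such a transcript. Hspa1a held 2.02 per kb and Hsp90aa1 1.52 per kb, while Hsph1 held 0.526, Hspa8 0.418 and Hsp90ab1 0.397 per kb. The median over all genes was 1.04 per kb, and 91.8% of transcripts held at least 1 match. These counts are of letters, and no m6A was measured here.

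The median profile of the 9 chaperone genes, leaving out Hsf1, was set against 9279 genes outside the group with a mean of at least 10 CPM. The genes whose profile over the 11 libraries was most like it were Gtpbp4, Atg7, Nob1, Nifk and Tigar. Likeness was the root mean square difference of standardised log2 CPM, from 0.151 for Gtpbp4 to 0.259 for Tigar. Gtpbp4 was at 98.5 CPM in Mettl3 KD, 94.8 CPM in Mettl14 KD and 81.7 CPM in scramble. By the same measure Dnaja1 lay 0.322 from that median profile, and Dnajb1, the farthest of the 9, lay 1.74 from it. Hspa1a at 1.34, Bag3 at 1.21 and Hspa1b at 1.18 also lay far from it. Each of these genes is part of the median it is set against.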

How the data were processed

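Gene expression was measured by stranded messenger RNA sequencing in 11 libraries, grouped by their titles. The authors deposited 1 table of estimated counts per Ensembl gene, and kallisto is named in the submitters' processing notes. Its version, the genome build, the annotation and the step from transcripts to genes: not given in the sources used here. Of the values 11.5% were not whole, and all were rounded before testing. Kallisto shares out reads that match several transcripts by estimation, so genes with near-identical copies are less certain than their counts show.

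Genes were kept by filterByExpr of edgeR 4.0.16 (R 4.3.3) with a minimum count of 10. All 11 libraries entered 1 quasi-likelihood fit with TMM scaling, a mean per group and Benjamini-Hochberg adjustment over 14133 genes. Each SE is approximate, taken from the size of the log2 fold change over the root of its F statistic, and 95% intervals use 8 residual degrees of freedom. The common biological coefficient of variation was 4.38%. Limits of this precision cover the spread between libraries. Since no label says whether replicates came from separate cultures, the p-values reflect the spread between these samples alone, and that spread may be technical. The least different replicate pair had a chi-square per degree of freedom of 2.10, above sampling noise.

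The 10 genes and the lists of other chaperone genes were chosen with earlier results of these data known. The 10 genes, Mettl3 and Mettl14 were always named, with, from each list, the 2 called members of smallest adjusted p in each knockdown against scramble and the 5 genes most like the median profile of the group without Hsf1. Other named genes were chosen after their values were seen, and 1 gene that the rule names is not reported here. Symbols matched 48651 of 53947 rows. Transcript lengths, shared 31-base words and GGACT counts used GENCODE M21 principal transcripts, and promoters came from RefSeq (GRCm38.p6), neither being the authors' stated reference. Tests ran on simulated data first. Alternatives were DESeq2 1.42.0, limma 3.58.1 voom with and without quality weights, other scalings, no count filter, a replicate block, only the groups compared, summed copies and leaving out each library.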

Additional observations from a re-analysis of the deposited data

How the results depend on the processing

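The count of called chaperone genes stayed within 4 to 6 for Mettl3 KD against scramble, 3 to 4 for Mettl14 KD against scramble and 2 to 3 for Mettl3 KD against Mettl14 KD over 11 alternatives, including the sum of Hspa8 and Gm15459, which was chosen after seeing the data. When 1 library was left out the ranges were 4 to 6, 3 to 4 and 1 to 3. The count of 1 came without Mettl3 KD replicate 4, Mettl14 KD replicate 1 or Mettl14 KD replicate 4, where Hsph1 and Hsf1 no longer passed. Dnajb1 in the comparisons with Mettl3 KD on top, and Dnaja1, Hsph1 and Hspa8 against scramble, kept their calls in all alternatives and leave-outs. Hsp90aa1 in Mettl3 KD was lost in 3 of the 11 alternatives: quality weights (adjusted p = 0.0607, limma), the replicate block (adjusted p = 0.0609, edgeR) and only the 2 groups compared (adjusted p = 0.0758, edgeR). Hsf1 between the knockdowns was lost in 5, with adjusted p up to 0.0752 (edgeR). Hsp90ab1 in Mettl3 KD passed with library totals alone and with no count filter, and Bag3 in Mettl14 KD passed with quality weights.

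After each group's mean log2 CPM was subtracted gene by gene, same-numbered libraries of different groups had correlations of -0.118 to 0.0674. With 3 or 4 libraries a group, these values do not settle whether replicate numbers pair the libraries. With the replicate block 4, 3 and 2 chaperone genes were called in the 3 comparisons, and 3784, 2335 and 839 of all genes. Over all genes the count for Mettl3 KD against Mettl14 KD was 1145, against 1868 with quality weights, 2187 with only the 2 groups compared, 2125 without scramble replicate 2 and 713 to 762 when Mettl3 KD lacked replicate 1 or 4 and when Mettl14 KD lacked replicate 1, 3 or 4. The cause was not tested.

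Signs turned only among values that did not pass. Hspa1a was -0.068 in Mettl14 KD with quality weights and 0.038 in Mettl3 KD with the replicate block. Over the leave-outs the log2 fold changes in Mettl3 KD against scramble ran from -0.14 to 0.17 for Hspa1a, -0.083 to 0.12 for Hspa1b and -0.022 to 0.11 for Hsf1. In Mettl14 KD against scramble they ran from -0.087 to 0.22 for Hspa1a and -0.015 to 0.11 for Hsp90ab1, and in Mettl3 KD against Mettl14 KD from -0.16 to 0.014 for Hspa1a and -0.0361 to 0.0027 for Bag3. The log2 ratio of inducible to constitutive HSP70 ran from -0.15 to 0.012 in Mettl14 KD against scramble. That of Hsp90aa1 to Hsp90ab1 ran from -0.036 to 0.024 in Mettl3 KD against scramble and from -0.012 to 0.047 in Mettl14 KD against scramble. Depth limits Hspa1a and Hspa1b most, at 23 to 77 counts a library.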

Other observations

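Genes whose profile over the 11 libraries was most like that of Dnajb1 were looked up after its values were seen, by the same likeness measure among 9279 genes. Ago1, which encodes an Argonaute protein that carries microRNAs, was closest with a root mean square difference of 0.164, at 44.6 CPM in Mettl3 KD, 55.0 CPM in Mettl14 KD and 58.1 CPM in scramble. Ssc5d followed at 0.175, with 25.6 CPM in Mettl3 KD, 31.3 CPM in Mettl14 KD and 32.3 CPM in scramble. Larp4b, an RNA-binding protein gene, had 107.7 CPM in Mettl3 KD, 124 CPM in Mettl14 KD and 128 CPM in scramble. Ptprn, which encodes the secretory granule protein IA-2, had 1503 CPM in Mettl3 KD, 1716 CPM in Mettl14 KD and 1767 CPM in scramble, and Fxyd6 had 82.0 CPM in Mettl3 KD, 133 CPM in Mettl14 KD and 133 CPM in scramble. The 10 chaperone genes of the group were left out of this search, so none of them could be among these 5.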
